A study of Mus musculus with 6 samples.

Results

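Efferocytosis and scavenger receptors are the surface proteins with which phagocytes recognise dying cells, modified lipids and other debris, together with the soluble proteins that bridge a dying cell to its receptor. The genes were chosen by name: Mertk, Axl, Gas6, Pros1, Cd36, Mrc1, Msr1, Cd163, Stab1 and Marco. Of these 10 genes, 9 were rows of the count table, which holds 16254 genes, and Cd163 was not among its rows and was dropped. All 9 passed the filter on low counts and were tested.

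Eosinophils grown from the bone marrow of young adult C57BL/6 mice were exposed for 24 h to extracellular vesicles (EVs), for which the study's methods give a dose of 5e9 EVs per ml in these cultures. The EVs came from cultured Th2 cells, the helper T cells of allergic inflammation, restimulated through the T-cell receptor. Control eosinophils received unconditioned medium put through the same EV isolation, here called sham treatment. Poly(A)-selected RNA was sequenced from 3 sham-treated and 3 EV-treated cultures, labelled as biological replicates, and the labels do not say whether they came from separate mice. All cultures had been expanded with FLT3 ligand and stem cell factor and then matured in IL-5, and no sorting of the cells before treatment is described.

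Apoptotic cells expose phosphatidylserine on their outer membrane. Gas6 and protein S, the product of Pros1, bind this lipid at one end and a receptor tyrosine kinase of the TAM family at the other, of which Mertk and Axl are members. Cd36, Msr1 and Marco are scavenger receptors for oxidised lipoproteins, modified proteins and bacterial surfaces, Stab1 binds phosphatidylserine and clears modified extracellular proteins, and Mrc1, the mannose receptor CD206, takes up glycoproteins with mannose-rich sugars. These genes are best known from tissue macrophages. Eosinophils are short-lived cells that macrophages clear after apoptosis.

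The deposited values are gene counts estimated by Salmon, which need not be whole numbers, and they summed to between 23697620 and 37874426 per library. They were rounded, scaled between libraries with edgeR's TMM method and tested with its quasi-likelihood test over 13498 genes. A gene was called where its adjusted p (Benjamini-Hochberg over these genes) was under 0.01. Values are normalized counts, which are counts brought to a common library size, the geometric mean of the 6 scaled library sizes. At this threshold 11.6% of the genes tested were lower and 12.1% were higher in EV-treated eosinophils, or 1572 and 1632 genes. With libraries scaled by total count alone, 2342 genes were lower and 1036 higher.

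Of the 9 genes, 8 fell with EVs, none was called higher, and Mrc1 was not called. In each of the 8 the highest EV-treated library lay below the lowest sham-treated library, a separation seen in this direction in 24.7% of all genes tested. Their log2 fold changes ran from -4.52 for Gas6 to -2.09 for Cd36. The median over the 9 genes was -2.60, and over all genes tested it was -0.014. In bulk RNA, fewer cells of a type and less RNA per cell cannot be told apart, which holds for each of these values.

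**Figure D1:**
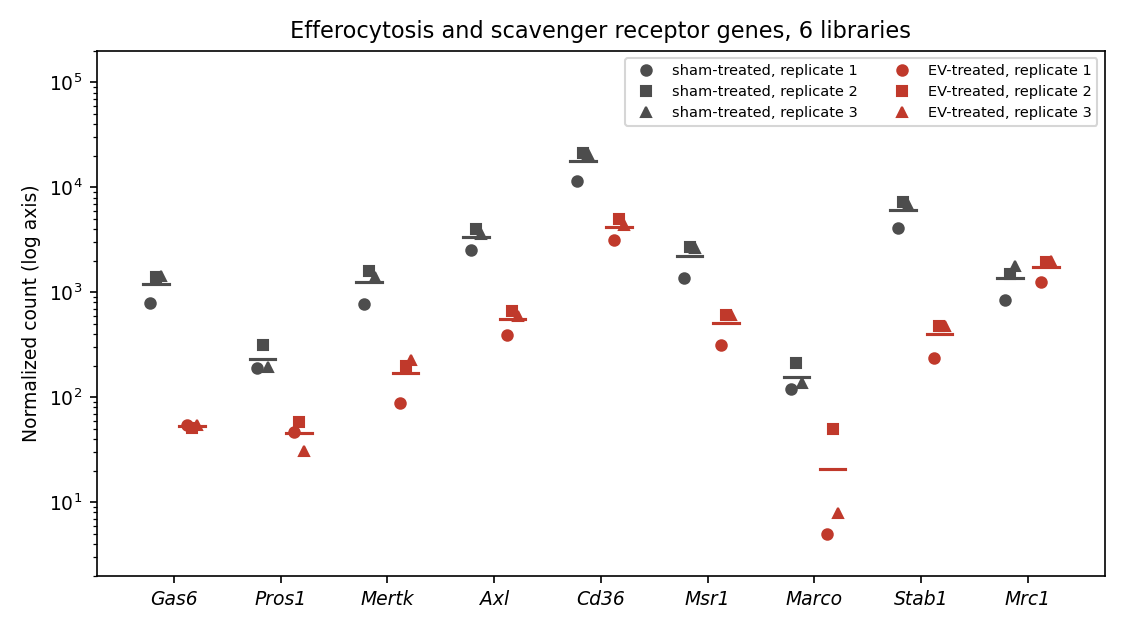
Normalized count (log axis) of the 9 genes in each of 3 sham-treated (grey) and 3 EV-treated (red) libraries, with the symbol giving the replicate and the bar the group mean. The EV-treated libraries lie below the sham-treated ones for every gene except Mrc1, where the groups overlap.

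The 9 genes lie on 7 chromosomes, and positions are those of GENCODE vM21 on GRCm38, which is the mm10 build named in the submitters' processing notes. Gas6 (chr8:13465374-13494490) and Msr1 (chr8:39581685-39642673) share a chromosome, as do Mrc1 (chr2:14229392-14332057) and Mertk (chr2:128698956-128802894). The others are Axl (chr7:25757273-25788705), Pros1 (chr16:62854307-62929346), Cd36 (chr5:17781690-17888801), Stab1 (chr14:31139013-31168641) and Marco (chr1:120474538-120505024). At most 0.733% of the 31-base words of any of them, in Stab1, occurred in a transcript of another gene, so few reads could be shared with relatives. Exons of Stab1 overlap those of Nt5dc2 on the opposite strand over 112 bases, and exons of Gas6 overlap those of Tmem255b over 34 bases. Strand use in the counting is not given in the sources used here.

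Promoter sequences from RefSeq on GRCm38.p6, covering 250 bases before to 50 after the annotated start, were held for 8 of the 9 genes. The RefSeq start of Cd36 lies inside the span GENCODE gives the gene. The promoters are shown for the gene that fell most (Gas6), for the gene that was not called (Mrc1), and for the pair in which a searched motif was found (Pros1 and Cd36). Capitals mark a motif match on either strand, and positions count from the first base printed.

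Gas6, chr8:13494486-13494785, minus strand: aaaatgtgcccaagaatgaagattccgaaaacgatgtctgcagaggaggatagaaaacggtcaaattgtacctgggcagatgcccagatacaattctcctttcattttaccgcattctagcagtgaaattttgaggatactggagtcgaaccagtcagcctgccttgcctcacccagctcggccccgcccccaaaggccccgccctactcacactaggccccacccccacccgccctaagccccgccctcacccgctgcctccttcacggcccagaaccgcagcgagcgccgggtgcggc
Mrc1, chr2:14229164-14229463, plus strand: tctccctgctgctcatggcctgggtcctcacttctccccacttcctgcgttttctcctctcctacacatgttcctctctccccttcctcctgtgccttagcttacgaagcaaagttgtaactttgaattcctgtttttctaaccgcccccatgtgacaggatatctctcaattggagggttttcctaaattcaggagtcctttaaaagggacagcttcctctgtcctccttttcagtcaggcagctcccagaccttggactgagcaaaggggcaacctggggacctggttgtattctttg
Pros1, chr16:62854057-62854356, plus strand: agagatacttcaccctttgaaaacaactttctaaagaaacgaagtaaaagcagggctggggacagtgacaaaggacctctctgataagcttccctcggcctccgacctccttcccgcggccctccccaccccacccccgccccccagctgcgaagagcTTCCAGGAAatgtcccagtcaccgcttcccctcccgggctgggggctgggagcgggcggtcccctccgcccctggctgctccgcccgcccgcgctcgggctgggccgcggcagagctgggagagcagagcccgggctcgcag
Cd36, chr5:17835847-17836146, minus strand: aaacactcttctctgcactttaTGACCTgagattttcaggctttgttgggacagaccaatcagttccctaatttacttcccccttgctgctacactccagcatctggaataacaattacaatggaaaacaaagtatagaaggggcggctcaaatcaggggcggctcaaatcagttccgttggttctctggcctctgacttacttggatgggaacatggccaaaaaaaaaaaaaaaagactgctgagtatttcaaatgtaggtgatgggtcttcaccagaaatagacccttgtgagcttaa

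The motifs searched, each on both strands, were GAGGAAGT for PU.1, TTCNNNGAA for STAT factors, TGANTCA for AP-1, TGCTGAC for the MAF half-site, and AGGTCA for the half-site of LXR and PPAR receptors. The STAT letters occurred at position 159 of the Pros1 promoter and in 8.3% of all 32851 promoters of this length. The receptor half-site occurred at position 23 of the Cd36 promoter and in 16.3% of all promoters. None of the 8 windows held the PU.1 letters (3.2% of all promoters), the AP-1 letters (7.81%) or the MAF half-site (4.67%), and no motif overlapped another in the windows printed. The GC content of the 8 windows ran from 43.0% in Cd36 to 66.7% in Pros1, against a median of 52.7% over all promoters.

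Among the bridging proteins, Gas6, a ligand of all TAM receptors, was at 785.7, 1413 and 1437 normalized counts in sham replicates 1 to 3 and at 53.9, 50.6 and 53.96 in EV replicates 1 to 3. The EV-treated libraries were close together, and the lowest sham-treated library was 14.6 times the highest of them. Gas6 fell by 4.52 on the log2 scale (standard error 0.249, edgeR adjusted p = 7.64e-07), or 22.9-fold, and 0.207% of the genes tested had a lower fold change.

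Pros1, which encodes the anticoagulant protein S as well as a TAM ligand, was at 188, 314 and 193 normalized counts in sham replicates 1 to 3 and at 46.96, 58.3 and 30.5 in EV replicates 1 to 3. All EV-treated libraries were below the sham-treated ones. It fell by 2.35 on the log2 scale (standard error 0.317, edgeR adjusted p = 0.000261). The ratio of Gas6 to Pros1 within a library, which no scaling between libraries affects, was 417, 450 and 744 Gas6 counts per 100 Pros1 counts in sham-treated eosinophils and 115, 86.8 and 177 in EV-treated eosinophils. Gas6 was lower relative to Pros1 in every EV-treated library. Per transcript length, on the scale defined further on, Gas6 nevertheless remained above Pros1 in all 6 libraries, most narrowly in EV replicate 2 at a level of 1.64 against 1.46.

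Of the TAM receptors, Mertk, the receptor kinase by which macrophages engulf apoptotic cells, was at 770 normalized counts in sham replicate 1, 1586 in replicate 2 and 1394 in replicate 3. In EV replicates 1 to 3 it was at 87.9, 199.7 and 228. The groups did not overlap, and replicate 1 was the lowest of each group. Mertk fell by 2.85 on the log2 scale (standard error 0.344, edgeR adjusted p = 0.000123).

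Axl, the TAM receptor typical of inflamed tissue, was at 2540, 3967 and 3620 normalized counts in sham replicates 1 to 3 and at 390.6, 671 and 600.6 in EV replicates 1 to 3. Its lowest sham-treated library was 3.78 times its highest EV-treated library. Axl fell by 2.60 on the log2 scale (standard error 0.209, edgeR adjusted p = 8.15e-06). Mertk stood at 30.3, 39.98 and 38.5 counts per 100 Axl counts in sham-treated and at 22.5, 29.8 and 37.97 in EV-treated libraries, so that their ratio overlapped between the groups. Tyro3, the remaining TAM receptor, was taken from a list fixed for this pathway. It lay between 62.2 and 68.6 normalized counts with sham treatment and between 82.7 and 117 with EVs, and was not called (log2 fold change 0.64, edgeR adjusted p = 0.112).

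Cd36 is a class B scavenger receptor that also imports long-chain fatty acids. It was at 11449, 21252 and 20652 normalized counts in sham replicates 1 to 3 and at 3171, 5021 and 4359 in EV replicates 1 to 3. The lowest sham-treated library was 2.28 times the highest EV-treated library. Cd36 fell by 2.09 on the log2 scale (standard error 0.231, edgeR adjusted p = 7.05e-05), the smallest of the 8 called changes, and in every library it made up between 51.7% and 56.96% of the counts of the 9 genes.

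Msr1, the class A scavenger receptor CD204, was at 1384, 2691 and 2651 normalized counts with sham treatment and at 315, 612.9 and 611 with EVs, in the order of the replicates. The groups did not overlap. It fell by 2.12 on the log2 scale (standard error 0.29, edgeR adjusted p = 0.000292).

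Marco, the other class A receptor here, binds inhaled particles and bacteria on macrophages. It was the gene with the widest spread, at 119, 211 and 136 normalized counts in sham replicates 1 to 3 and at 4.995, 49.7 and 7.83 in EV replicates 1 to 3. The groups did not overlap, but the EV-treated libraries differed among themselves by a factor of 9.95, with EV replicate 2 far above the others. Marco fell by 2.87 on the log2 scale (standard error 0.7, edgeR adjusted p = 0.00953), close to the threshold. In the 6 fits that each left out a library the adjusted p was 0.0137, 0.0338 and 0.0263 without sham replicates 1, 2 and 3, and 0.0196, 0.00022 and 0.0403 without EV replicates 1, 2 and 3, so that the call was kept only without EV replicate 2, where the log2 fold change was -4.55.

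Stab1, which encodes stabilin-1, fell the second most. It was at 4065, 7177 and 6836 normalized counts in sham replicates 1 to 3 and at 237, 482 and 478 in EV replicates 1 to 3. The lowest sham-treated library was 8.44 times the highest EV-treated library. Stab1 fell by 3.91 on the log2 scale (standard error 0.285, edgeR adjusted p = 4.43e-06), or 15.0-fold. Its ratio to Msr1, both of them scavenger receptors, was 294, 267 and 258 counts per 100 Msr1 counts in sham-treated and 75.2, 78.6 and 78.2 in EV-treated libraries. These values lay close together within each group and far apart between the groups.

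Mrc1 was the exception among the 9 genes. It was at 854, 1494 and 1790 normalized counts in sham replicates 1 to 3. In EV replicates 1 to 3 it was at 1260, 1962 and 1978, and the groups overlapped. Its log2 fold change was 0.34 (standard error 0.247, edgeR adjusted p = 0.332), with a 95% confidence interval from -0.22 to 0.89. None of the fold changes of the other 8 genes lies within that interval, which leaves room for a small fall or a larger rise. In all 13 alternative fits the fold change of Mrc1 stayed above 0. In 1 of them, with the replicate number as a block, Mrc1 was called higher, as given in the closing section. Per 100 counts of the other 8 genes, Mrc1 had 4.01, 3.87 and 4.85 counts in sham-treated and 29.2, 27.5 and 31.1 counts in EV-treated libraries, a 6.90-fold difference in the means without overlap. The other 8 genes fell, so this ratio does not show a rise of Mrc1.

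**Figure D2:**
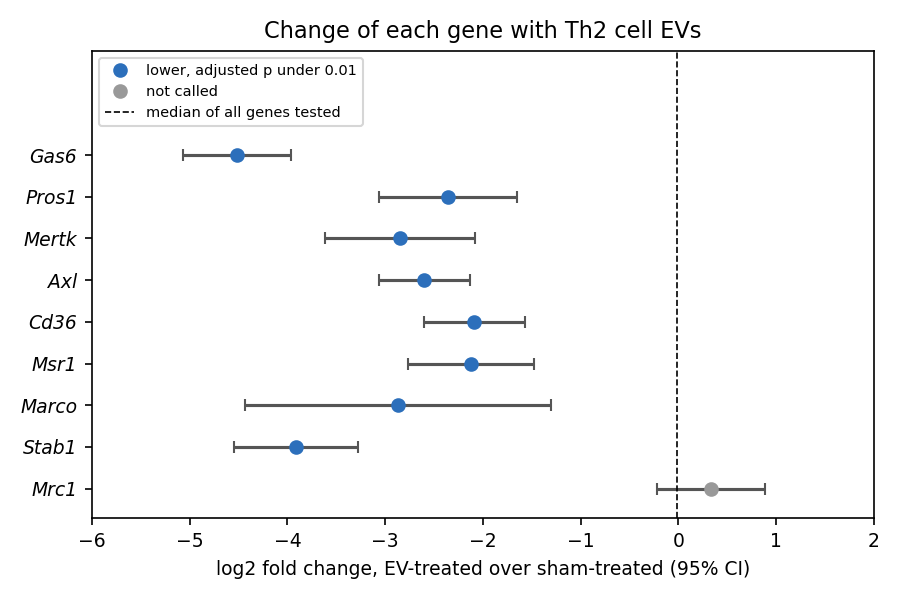
Log2 fold change of each gene, EV-treated over sham-treated, with its 95% confidence interval from edgeR's quasi-likelihood fit (3 libraries per group) and the median of all genes tested as a dashed line. The fold changes of 8 genes run from -4.52 for Gas6 to -2.09 for Cd36. Their intervals lie wholly below 0, with the limit nearest to 0 at -1.31 for Marco, and the interval of Mrc1 spans 0.

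Levels of different genes were compared per length, as counts per kilobase of the longest GENCODE transcript scaled to the same sum in each library (here called TPM). In sham-treated eosinophils Cd36 was highest at 481 ± 151 TPM (SD, n = 3). Axl at 72.8 ± 16.8 TPM, Stab1 at 69.3 ± 20.1, Msr1 at 56.7 ± 19.1 and Gas6 at 43.8 ± 13.5 followed. The SD holds variation between libraries that the genes share, so their order was read within each library. Stab1 was above Msr1, and Msr1 above Gas6, in every sham-treated library. Axl and Stab1 changed order in sham replicate 3 (76.88 against 77.41). Mertk at 26.8 ± 9.37 TPM and Mrc1 at 23.6 ± 8.11 also changed order in sham replicate 3 (29.35 against 30.17). Marco at 7.44 ± 2.48 and Pros1 at 6.47 ± 2.11 were lowest (SD, n = 3).

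In the means of EV-treated eosinophils Mrc1 moved from rank 7 to rank 2 of the 9 genes. Stab1 moved from rank 3 to rank 5, and was below Msr1 in every EV-treated library. Gas6 moved from rank 5 to rank 7. It was below Mertk in EV replicates 2 and 3 but above it in EV replicate 1 (1.744 against 1.683). Cd36 remained highest at 100.6 ± 22.7 TPM (SD, n = 3), followed by Mrc1 at 26.3 ± 6.10. Msr1 at 11.5 ± 3.81 TPM and Axl at 10.6 ± 2.80 changed order between libraries, with Axl above Msr1 in EV replicate 1 alone (7.542 against 7.127). Stab1 was at 4.07 ± 1.42 TPM, Mertk at 3.26 ± 1.38, Gas6 at 1.69 ± 0.0516, Pros1 at 1.12 ± 0.362 and Marco at 0.892 ± 1.08 (SD, n = 3). Marco was above Gas6 and Pros1 in EV replicate 2 alone (2.135 against 1.641 and 1.459). Mrc1 made up between 3.73% and 4.62% of the counts of the 9 genes in sham-treated and between 21.5% and 23.7% in EV-treated libraries, while Stab1 went from between 17.7% and 18.4% to between 4.25% and 5.73%.

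The genes also varied together within each group. Sham replicate 1 was the lowest sham-treated library for all 9 genes, and EV replicate 1 was the lowest EV-treated library for 7 of them, the exceptions being Gas6 and Pros1. Together the 9 genes took 749.5, 1381 and 1319 CPM, which is counts relative to the library's total, in sham replicates 1 to 3 and 173, 282 and 253 in EV replicates 1 to 3. With either sham replicate 1 or EV replicate 1 left out, 7 genes were called lower, the 8 without Marco.

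Markers of other cell types were examined because no sorting is described. Those of the labelled cell type were abundant. All 12 eosinophil marker genes were present, summing to between 30540 and 38470 CPM (for the markers, relative to the scaled library size) with sham treatment and between 43570 and 48670 with EVs, and 8 of them were higher and none lower (1 was lower without scaling factors). Most macrophage and monocyte markers fell, as did 8 of the 9 genes. Of the 15 in the table, 11 were lower and 2 higher with EVs, with a median log2 fold change of -2.48 and a summed level of 3523 to 5386 CPM in sham-treated and 2363 to 2660 in EV-treated libraries. None of the 15 was at 0 in every library, and Vsig4 was not in the table.

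Of these markers, Trem2 and Apoe, a lipid-sensing receptor and a lipid carrier of macrophages, fell (log2 fold changes -3.43 and -3.71, edgeR adjusted p = 7.58e-07 and 1.22e-05). Adgre1, which encodes the F4/80 antigen that mouse eosinophils also carry, and Ly6c2, a monocyte antigen, rose (log2 fold changes 0.62 and 1.34, edgeR adjusted p = 6.36e-06 and 8.53e-07). Of the stromal and endothelial markers 1 was lower, the collagen gene Col1a2 (log2 fold change -2.91, edgeR adjusted p = 0.00662), and the median log2 fold change of the 5 tested was -2.27. The number called lower was 0 with DESeq2 or without sham replicate 1, 2 or 3 or EV replicate 2 or 3. It was 3 with limma, with the replicate number as a block, at an adjusted p under 0.05, or without EV replicate 1. The 9 of these markers in the table summed to between 365.8 and 692 CPM in sham-treated and between 55.8 and 248 in EV-treated libraries. Of 7 tested mast cell and basophil markers 5 were higher and none lower, of 9 neutrophil markers 2 were higher and 4 lower, and of 6 dendritic cell markers 1 was higher, a call lost when any of 5 of the libraries was left out. The 7 T cell markers in the table summed to at most 39.9 CPM in any library, with Cd28 lower and Il4 higher among the 3 tested. Most of that sum was Il4 and Cd28, with mean levels of 20.7 and 9.75 CPM over all libraries. Cd3g, Cd4, Cd2 and Lck did not pass the filter on low counts, and Cd3e was not in the table. The part of a change in cell makeup in the fall of the 8 genes was not tested.

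The complement genes C1qa, C1qb and C1qc, which are made mainly by macrophages, were used as a reference within each library. They were chosen after their values were seen, from the macrophage list, and the ratios are a description with no test. The macrophage markers called lower differed among themselves, with log2 fold changes from -3.71 for Apoe to -1.31 for Csf1r. Which genes are higher, lower or level relative to a marker therefore depends on the marker, and the following holds for the C1q genes. Relative to them, the 9 genes diverged. Axl had 43.8, 35.1 and 36.9 counts per 100 C1q counts in sham-treated and 42.9, 36.4 and 31.3 in EV-treated libraries, with overlap, and Pros1 and Marco overlapped as well. Mertk was a little lower, at 13.3, 14.1 and 14.2 against 9.65, 10.8 and 11.9, and Cd36 and Msr1 were a little higher, by 1.42-fold and 1.33-fold in the means.

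Gas6 and Stab1 were lower relative to the C1q genes, at 13.5, 12.5 and 14.7 Gas6 counts per 100 C1q counts with sham treatment against 5.92, 2.75 and 2.81 with EVs, and 70.04, 63.6 and 69.7 Stab1 counts against 26.0, 26.2 and 24.9. Mrc1 stood apart in the opposite direction, at 14.7, 13.2 and 18.3 counts per 100 C1q counts in sham-treated and 138, 106.5 and 103 in EV-treated libraries, a 7.53-fold difference in the means. C1qa, C1qb and C1qc themselves fell (log2 fold changes -2.58, -2.48 and -2.56) and Mrc1 was not called, so this ratio does not show a rise of Mrc1. Replicate 1 was the lowest of both groups in these ratios for Mertk alone, unlike in the normalized counts.

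**Figure D3:**
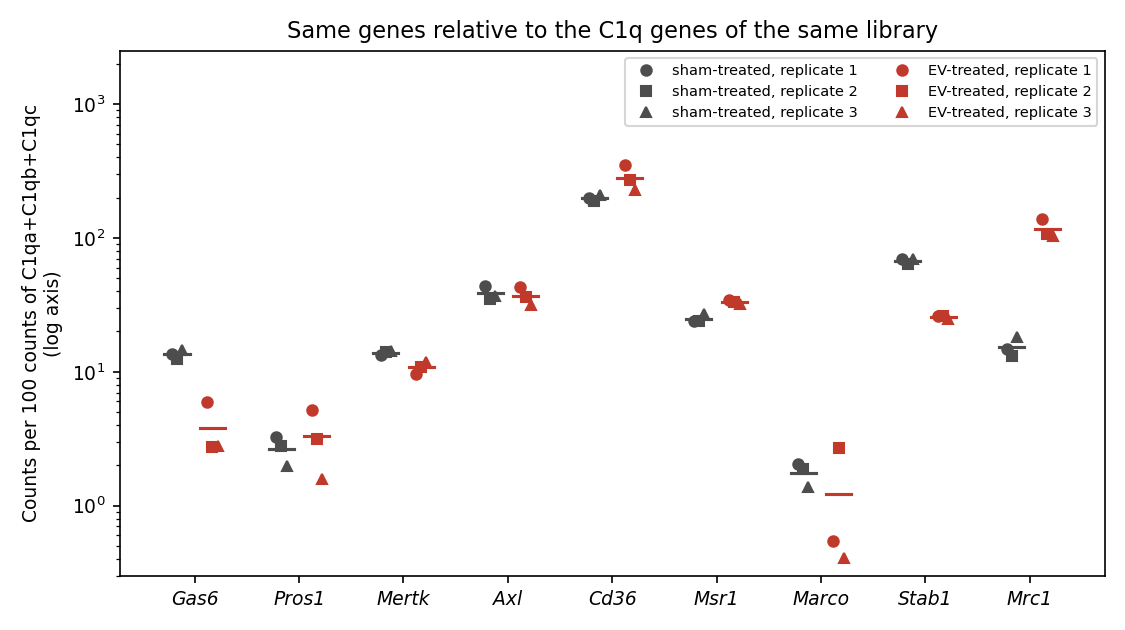
Counts of the 9 genes per 100 counts of C1qa, C1qb and C1qc in the same library (log axis), with grey for sham-treated, red for EV-treated, the symbol for the replicate and the bar for the group mean. Axl, Pros1 and Marco overlap between the groups, Gas6 and Stab1 stay lower with EVs, and Mrc1 is 7.53-fold higher relative to the C1q genes, which themselves fell.

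Other genes of dead cell recognition were described from a fixed list of receptors and bridging molecules. Of its 21 genes, 18 were tested, 3 were higher and 11 were lower, with a median log2 fold change of -1.36. Over all genes tested, 12.1% were called higher and 11.6% lower, and the counts of each list, the markers included, stand beside these shares. The lists share called genes: Cd14, C1qa, C1qb and C1qc are also counted among the macrophage markers, as Cd68 is from the next list, and Lrp1 and Stab2 are counted again there. Lrp1, a large endocytic receptor for calreticulin and complement on dying cells, fell by 3.51 on the log2 scale, from between 19300 and 33553 to between 1964 and 2793 normalized counts (edgeR adjusted p = 1.15e-06). Cd14, a lipopolysaccharide co-receptor that also tethers apoptotic cells, fell by 3.38 (edgeR adjusted p = 5.18e-06). Cd300lf, a phosphatidylserine-binding receptor, rose instead, from between 7413 and 8641 to between 20038 and 21030 normalized counts (log2 fold change 1.37, edgeR adjusted p = 3.43e-07). So did Itgb3, an integrin chain of the receptor for bridged dying cells (log2 fold change 1.35, edgeR adjusted p = 1.49e-06). Its partner chain Itgav, the related chain Itgb5 and the bridging protein Mfge8 were called lower (log2 fold changes -0.69, -2.84 and -1.59), named here after their values were seen.

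A further list held other scavenger and mannose receptors together with genes for the handling of heme and fatty acids. Of the 24 listed, 21 were tested, 1 was higher and 12 were lower, with a median log2 fold change of -1.92. The 12 include genes that encode no receptor, among them Cd5l, described next. The heme-degrading enzyme Hmox1 and the fatty acid binding proteins Fabp4 and Fabp5 are further such genes (log2 fold changes -3.36, -2.45 and -2.82), named here after their values were seen. Cd5l, a secreted scavenger protein of macrophages, was at between 1190 and 2609 normalized counts in sham-treated and between 56.9 and 117 in EV-treated libraries, and fell by 4.55 on the log2 scale (edgeR adjusted p = 5.08e-06). Olr1, a lectin-like receptor for oxidised LDL, was the gene that rose (log2 fold change 0.62, edgeR adjusted p = 6.87e-05). Mrc2, the closest listed relative of Mrc1, was at between 206 and 400 normalized counts with sham treatment and between 6.09 and 94.9 with EVs, and was not called (log2 fold change -3.01, edgeR adjusted p = 0.0118).

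Of 22 engulfment and corpse processing genes tested, 12 were not called, 4 were higher and 6 were lower, with a median log2 fold change of -0.0354. None of the 4 had a log2 fold change of 1 or more, and the shares called over all genes were 12.1% higher and 11.6% lower. Abca1, which exports cholesterol taken up with a dead cell, fell by 3.66 on the log2 scale (edgeR adjusted p = 7.43e-06), and Slc12a2, an ion cotransporter, by 3.16 (edgeR adjusted p = 6.71e-05). Elmo2 and Rac2, which act in the remodelling of actin around a particle, rose (log2 fold changes 0.89 and 0.61, edgeR adjusted p = 2.17e-05 and 2.73e-05).

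Of 16 tested genes for find-me, eat-me and do-not-eat-me signals, 5 were higher and 5 were lower, with a median log2 fold change of -0.0686. Cd24a and Siglecg, a sugar-bearing surface protein and its inhibitory receptor, rose (log2 fold changes 1.40 and 2.73, edgeR adjusted p = 1.53e-07 and 2.62e-07). S1pr1, a receptor for a lipid signal, and P2ry6, a receptor for nucleotides, fell (log2 fold changes -2.16 and -2.04, edgeR adjusted p = 1.22e-05 and 0.000478). Cx3cr1, the receptor for the find-me chemokine Cx3cl1, had no count in any EV-treated library and was at least 61.6-fold lower against 3 counts in each of them. Cx3cr1 was named after its values were seen.

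**Figure D4:**
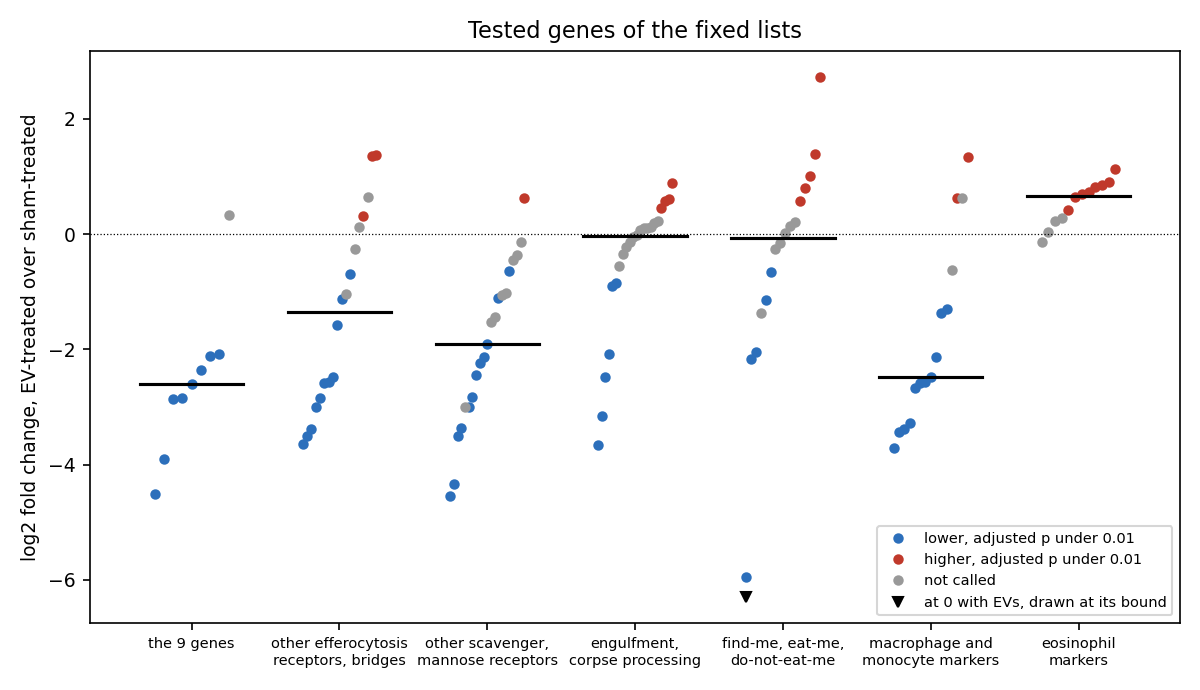
Log2 fold change of each tested gene (EV-treated over sham-treated), by list, with called genes in blue (lower) or red (higher), others in grey, the bar at the list's median and Cx3cr1 drawn at its bound of -5.94. The 9 genes have a median of -2.60, near the -2.48 of the macrophage and monocyte markers, while the eosinophil markers have a median of 0.67.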

How the data were processed

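RNA was sequenced from 3 sham-treated and 3 EV-treated eosinophil cultures, grouped and numbered by the sample labels. The authors trimmed reads with Cutadapt, quantified them with Salmon and deposited the estimated counts used here, which are unscaled. The submitters' processing notes name mm10, and versions and annotation are not given in the sources used here. Deposited normalized counts were not used, nor was the authors' own comparison (mean counts, log2 fold changes, errors, p-values).

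Estimated counts were rounded and tested in edgeR 4.0.16 (R 4.3.3) with TMM scaling, filterByExpr and the quasi-likelihood test, two-sided, with treatment as the only term. A standard error is the size of a fold change (log2) over the root of its F statistic, and intervals use the test's degrees of freedom. P-values measure the spread between these cultures. The alternatives were RLE or no scaling factors, DESeq2 1.42.0, limma 3.58.1, the replicate number as a block, no filter, thinned libraries, other thresholds and leaving out each library. The fit was tested on simulated data. Lengths, positions and 31-base words came from GENCODE vM21, in which 15522 of the genes had a length.

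The genes and lists were chosen with earlier results of these data known. The named genes are the chosen ones and, of each list, at most the 2 called genes with the largest change in each direction among those with a mean normalized count over 100 and no overlap between groups, with exceptions stated. Mrc2 and Tyro3 were named as relatives, after their values were seen. Sequences were searched for 5 short motifs.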

Additional observations from a re-analysis of the deposited data

How the results depend on the processing

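The 8 genes that fell kept their direction in all 13 alternative fits, and 7 of them, all but Marco, kept an adjusted p under 0.01 in each. The number called lower was 8 with all libraries and between 7 and 8 with each library left out, Marco being the gene lost. The median log2 fold change of all genes was -0.163 without scaling factors, against -0.014, and the 8 genes fell under both. The added fold threshold lost none of the 8.

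Same-numbered libraries of the groups deviated from their group means with correlations of 0.117, 0.0846 and 0.0371 across genes for replicates 1, 2 and 3. These were positive but small, so the numbers were not taken as pairs. EV replicates 1 and 2 each correlated best with the sham replicate of their own number, and EV replicate 3 with sham replicate 2 (0.0487). With the replicate number as a block, 1794 genes were called higher and 1781 lower. Under it, Mrc1 was called higher (log2 fold change 0.36, edgeR adjusted p = 0.00663), which made 1 gene called higher, and over its 13 alternatives its adjusted p ran from 0.00663 to 0.749 and its log2 fold change from 0.0857, without sham replicate 1, to 0.58, without sham replicate 3. The block changed no other call among the 9 genes, but it lowered the adjusted p of each. That of Marco went from 0.00953 to 3.54e-05 (edgeR).

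Over all genes, 1036 were called higher without scaling factors, 419 higher and 857 lower with the added fold threshold, and 2478 lower at an adjusted p under 0.05. With a library left out, between 1071 and 1833 genes were called higher and between 1018 and 1698 lower; the counts of 1071 higher and 1018 lower were without EV replicate 3 and that of 1044 lower without EV replicate 2. With the fold threshold, 3 genes of find-me, eat-me and do-not-eat-me signals, 0 of engulfment and 0 of the scavenger receptor list were called higher. Marco had between 5 and 58 counts in the EV-treated libraries, and kept its call with libraries thinned to the smallest total (edgeR adjusted p = 0.00704).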
